A study of Homo sapiens with 21 samples.

Results

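Bidirectional promoters are stretches of DNA from which a pair of protein-coding genes is transcribed in opposite directions. In the estradiol list of estrogen receptor beta (ER-beta) regions, 370 of 26861 regions, or 1.38%, had their summit in such a stretch. A region was counted when its summit lay within 1000 bp upstream to 100 bp downstream of transcription start sites (TSSs) of at least 2 protein-coding genes on opposite strands, in GENCODE 44 on the hg38 build. Another 4039 regions had their summit in the same window for genes of only 1 strand and are called one-directional promoter regions, and the remaining 22452 regions are called regions outside promoters. The 370 regions covered 339 distinct pairs of nearest genes and 688 genes. The choice used only the position of the summit and no measured strength.

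The regions came from ChIP-seq, the sequencing of DNA recovered with an antibody to a chromatin protein, in the triple-negative breast cancer line MDA-MB-231. All cells carried a doxycycline-inducible Flag-tagged ER-beta, received 100 ng/ml doxycycline for 24 h, and were then given 1 nM estradiol, LY500307 or ethanol vehicle for 3 h. LY500307 is an agonist selective for ER-beta, and its dose is uncertain because the titles give 1 nM and the characteristics give 10 nM. The labels list 4 ChIP libraries made with an antibody against Flag and 3 input libraries for each treatment, and each set of 4 ChIP libraries shares 1 list of enriched regions. The receptor is made from an introduced gene, so its level may differ from that of the cell's own receptor, and no library of cells without doxycycline was analysed here. With 1 pooled list per treatment, the values below carry no spread between replicates, and the treatments were not tested against each other. The intervals below cover counting error among regions of a list, which are not replicates of a treatment, and the sequencing depth is unknown from the lists.

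ER-beta is a nuclear receptor that binds DNA as a dimer at estrogen response elements (EREs), inverted repeats of GGTCA with 3 bases between the repeats, and also reaches DNA through other factors such as AP-1 and SP1. Bidirectional promoters are typically rich in CpG dinucleotides, often lack a TATA box, and often carry elements for ETS factors, NRF1, NF-Y and YY1. Many of them serve housekeeping genes of DNA repair, mitochondria and protein folding.

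The sequences that stand under the strongest regions and under the few EREs show how these promoters look. The following stretches, hg38 plus strand and 5′ to 3′, reach 100 bp to each side of the summit of 6 of the 15 strongest regions, with capitals on every searched element. In order, the capitals mark an SP1 box at AFF1, nothing at ATG9A, an AP-1 element at ZBTB25, an AGGTCA half-site, SP1 boxes and an NRF1 element at ACYP1, a pair of half-sites and an SP1 box at DDIT3, and a pair of touching ETS elements beside an SP1 box at GBA2.
ENSG00000285458/AFF1, chr4:86934675-86934875: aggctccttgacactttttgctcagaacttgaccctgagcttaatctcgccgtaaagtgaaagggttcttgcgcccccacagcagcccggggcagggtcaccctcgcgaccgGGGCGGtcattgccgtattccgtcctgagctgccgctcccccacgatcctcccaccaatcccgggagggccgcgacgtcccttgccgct
ATG9A/ANKZF1, chr2:219229141-219229341: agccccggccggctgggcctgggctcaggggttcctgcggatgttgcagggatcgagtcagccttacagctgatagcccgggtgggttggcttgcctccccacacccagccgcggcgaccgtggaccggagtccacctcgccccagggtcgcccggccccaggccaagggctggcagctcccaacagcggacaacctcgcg
ZBTB25/ZBTB1, chr14:64504196-64504396: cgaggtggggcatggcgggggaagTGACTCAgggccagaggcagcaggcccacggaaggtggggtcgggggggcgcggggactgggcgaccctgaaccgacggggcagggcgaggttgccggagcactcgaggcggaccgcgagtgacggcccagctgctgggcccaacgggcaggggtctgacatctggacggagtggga
ACYP1/ZC2HC1C, chr14:75069407-75069607: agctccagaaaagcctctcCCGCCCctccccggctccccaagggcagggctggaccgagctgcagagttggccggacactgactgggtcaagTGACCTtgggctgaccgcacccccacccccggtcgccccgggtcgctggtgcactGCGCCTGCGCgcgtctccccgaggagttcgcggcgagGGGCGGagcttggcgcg
DDIT3/MBD6, chr12:57522253-57522453: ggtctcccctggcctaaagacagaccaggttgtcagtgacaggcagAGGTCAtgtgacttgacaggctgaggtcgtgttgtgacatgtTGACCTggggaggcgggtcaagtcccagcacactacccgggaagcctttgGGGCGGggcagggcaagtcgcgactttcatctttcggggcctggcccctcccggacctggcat
GBA2/RGP1, chr9:35749110-35749310: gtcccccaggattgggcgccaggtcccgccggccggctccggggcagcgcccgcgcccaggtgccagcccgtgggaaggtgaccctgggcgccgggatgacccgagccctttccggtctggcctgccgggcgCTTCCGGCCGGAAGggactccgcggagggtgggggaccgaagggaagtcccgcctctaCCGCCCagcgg

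No region had an ERE without mismatch in this stretch, 0 of 370, for which 3 counts set a limit of 0.811% and the 95% Wilson interval reaches 1.03%. An ERE with 1 mismatch in its 10 fixed positions stood at 8 of 370 regions. These 8 were singled out after their values had been seen. Their elements follow with 10 bases on each side, with the 10 fixed positions in capitals.
LCA5L/SH3BGR: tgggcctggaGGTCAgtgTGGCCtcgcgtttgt
RAB24/PRELID1: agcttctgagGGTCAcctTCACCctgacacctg
PSME2/RNF31: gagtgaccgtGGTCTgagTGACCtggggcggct
TIGD1/EIF4E2: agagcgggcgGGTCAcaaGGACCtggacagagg
GLA/HNRNPH2: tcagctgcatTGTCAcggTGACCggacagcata
HSP90AA1/WDR20: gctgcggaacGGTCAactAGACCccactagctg
RBM18/MRRF: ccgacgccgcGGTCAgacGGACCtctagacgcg
DNAJC7/NKIRAS2: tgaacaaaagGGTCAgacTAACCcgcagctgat

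The strongest regions at bidirectional promoters reached folds seen at the top of the whole list. The fold is the authors' ratio of the pooled ChIP signal to the local background at the summit, and it is used here only within a list or as values side by side, since each list has its own scaling. The strongest, at chr4:86934474-86935472 between the TSSs of AFF1 and of a gene annotated only as ENSG00000285458, had a fold of 180.5 under estradiol, 83.7 under LY500307 and 34.9 under ethanol. AFF1 encodes a scaffold of the super elongation complex. This region stood at rank 26 of the 26861 estradiol regions by -log10 q. The second, at chr2:219228926-219229521, lay at ATG9A, a lipid scramblase of autophagy, and ANKZF1, which acts in ribosome quality control, and had folds of 116.0 under estradiol and 44.4 under LY500307. The third, at chr10:125895923-125896690, lay at DHX32, of a helicase family, and FANK1 and had folds of 107.5 under estradiol and 52.3 under LY500307. Neither of the last 2 overlapped an ethanol region.

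Of the next 7 regions by -log10 q, ZBTB25/ZBTB1, a pair of zinc finger transcription factors, had folds of 77.9 under estradiol, 28.1 under LY500307 and 7.44 under ethanol. At ACYP1, an acylphosphatase, and ZC2HC1C the folds were 73.3 under estradiol, 20.0 under LY500307 and 4.58 under ethanol. DDIT3, the stress-induced transcription factor CHOP, shares its promoter with MBD6, a methyl-CpG-binding domain protein. Its region had a fold of 73.5 under estradiol and 23.9 under LY500307. UBQLN4, a ubiquilin, and LAMTOR2, a subunit of the Ragulator complex that anchors nutrient signalling at lysosomes, had a region of fold 69.2 under estradiol and 25.95 under LY500307. At SAT2 and SHBG, which encodes the sex hormone-binding globulin of the blood, the folds were 54.7 under estradiol, 16.4 under LY500307 and 6.78 under ethanol. SHBG is known chiefly as a liver gene.

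The other members of the 10 strongest were EML3/ROM1, with folds of 49.6 under estradiol and 13.1 under LY500307, and BLVRB/SPTBN4, with 39.2 under estradiol and 12.95 under LY500307. EML3 is a microtubule-binding protein and BLVRB a biliverdin reductase. All 10 overlapped an LY500307 region and 4 overlapped an ethanol region. The strongest 10% of the estradiol list by -log10 q held 9 of them, and there 100% of regions of each class overlapped an LY500307 region. Ethanol overlap there was 44.4% at bidirectional promoters, 52.7% at one-directional promoters and 50.2% outside promoters. None of the 10 had an ERE with at most 1 mismatch, and 3 had one with 2 mismatches. In all 10 the estradiol fold was the highest of the folds listed, but the 10 were chosen by estradiol -log10 q. Each list also has its own scaling, so this order does not compare the treatments.

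**Figure D1:**
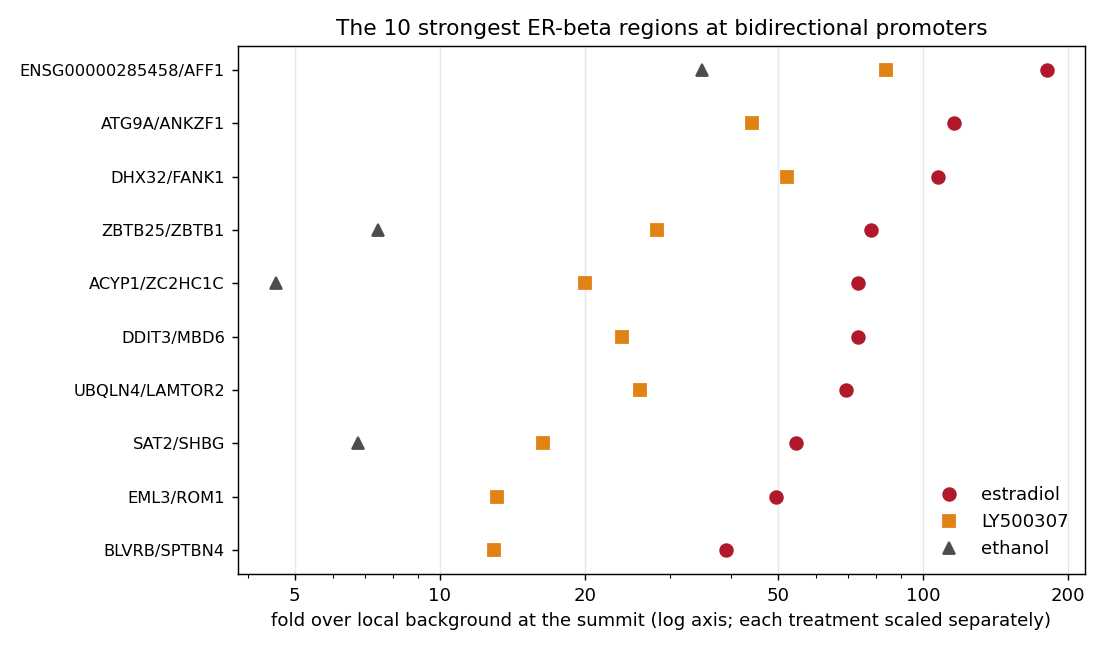
Fold over local background (log axis) of the 10 strongest estradiol regions at bidirectional promoters, named by the genes on the minus and plus strand. Circles are estradiol, squares LY500307 and triangles ethanol. In all 10 rows the estradiol point lies to the right of the LY500307 point. The 4 ethanol points lie furthest to the left, with 34.9 at AFF1 and 4.58 to 7.44 at the other 3. The rows were chosen by estradiol -log10 q and each treatment is scaled separately, so the order does not compare treatments.

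Below this top, most regions at bidirectional promoters were weak members of the estradiol list. The fold ran from 3.39 to 180.5 with a median of 6.35 and quartiles of 5.48 and 8.31. The median was 6.998 at one-directional promoter regions, 10.4 outside promoters and 9.50 over the whole list. The median -log10 q was 7.96 at bidirectional promoters, 9.45 at one-directional promoters and 19.1 outside promoters. By -log10 q, 196 of the 370 regions, or 53.0%, fell into the weakest quartile of the estradiol list, 105 into the second, 38 into the third and 31, or 8.38%, into the strongest. At one-directional promoters 43.4% fell into the weakest quartile and 13.9% into the strongest. Width did not follow this order, with medians of 328.5 bp at bidirectional promoters, 343 bp at one-directional promoters and 328 bp outside promoters.

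As a place for ER-beta, a bidirectional promoter held a summit more often per base than a one-directional promoter. The annotation has 1682 separate stretches that meet the rule, 1.13 Mb in all, and 340 of them, or 20.2% (95% Wilson interval 18.4 to 22.2%), held an estradiol summit. Of 35118 one-directional stretches, 42.1 Mb in all, 10.3% (9.997 to 10.6%) held one. Per Mb, the estradiol list had 328.3 summits in bidirectional stretches, 96.0 in one-directional stretches and 7.37 elsewhere. The LY500307 list had 83.4, 31.3 and 2.84 summits per Mb in the same order, and the ethanol list had 38.2, 12.2 and 0.771. The share of bidirectional stretches with an estradiol summit grew with their length, with 1 of 88 stretches of up to 200 bp, 10.5% of the next length class up to 500 bp, 22.9% of those up to 1000 bp and 35.8% of longer ones.

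The bidirectional stretches lie closer to a TSS than the one-directional ones do, so the densities were also taken by distance to the nearest protein-coding TSS of either strand. Within 50 bp of a TSS there were 335.6 estradiol summits per Mb in bidirectional stretches (95% exact Poisson interval 285.9 to 391.4) and 151.0 in one-directional ones (140.5 to 162.1). From there to 100 bp the densities were 384.7 (316.2 to 463.7) and 175.0 (162.6 to 188.1), up to 250 bp they were 304.7 (233.1 to 391.4) and 165.2 (155.7 to 175.1), and up to 500 bp they were 292.5 (200.1 to 412.9) and 88.9 (83.0 to 95.1). The intervals did not overlap in any of these 4 classes. Farther out they did, with 102.7 (33.4 to 239.8) from 5 summits in bidirectional stretches and 34.4 (31.6 to 37.3) in one-directional ones. In the LY500307 list the intervals were apart in 3 of the 5 classes and in the ethanol list in 2 of the 5, with bidirectional stretches higher in each. Within 50 bp the ethanol intervals overlapped, where 26.9 summits per Mb (14.3 to 46.0) stood in bidirectional stretches and 23.8 (19.7 to 28.4) in one-directional ones. Whether the genes of either kind were transcribed in these cells was not measured, and its part in the densities was not tested.

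**Figure D2:**
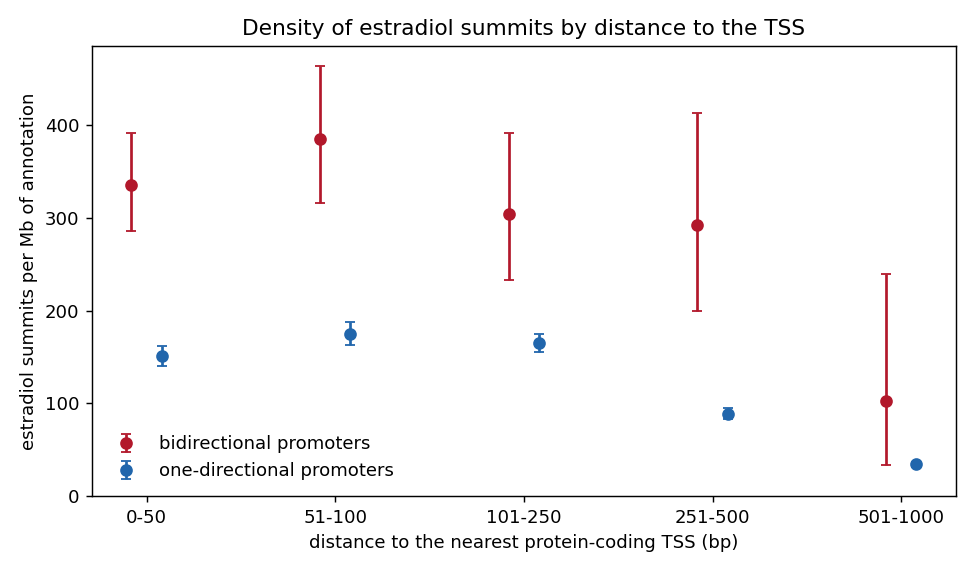
Estradiol summits per Mb of annotated promoter (y axis) by distance to the nearest protein-coding TSS in bp (x axis), with bidirectional promoters in red and one-directional promoters in blue. Bars are 95% exact Poisson intervals; the red points lie above the blue points at every distance, at 335.6 against 151.0 within 50 bp, and the intervals overlap only in the farthest class.

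Within the promoter most summits lay within 100 bp of a TSS, where most of the bidirectional stretches also lie. Of their 1.13 Mb, 0.483 Mb lay within 50 bp of a TSS and 0.286 Mb from there to 100 bp. The TSSs of the nearest pair were a median of 363 bp apart, with quartiles of 166.25 and 698.5 bp, and in 6 regions the transcripts overlapped at their starts. Between the TSSs lay 182 of the 370 summits, 92 lay inside the minus-strand gene, 93 inside the plus-strand gene and 3 inside both. The strand labels are arbitrary, so this even split cannot show whether summits lean to 1 gene of a pair. The summit was a median of 60.5 bp from the nearest TSS whose own window held it. At one-directional promoters, where the rule leaves room for greater distances, this median was 198 bp. A nearer TSS whose window does not hold the summit is left out, unlike in the densities above. The median fold hardly moved with the place, at 6.47 between the TSSs, 6.25 inside the minus-strand gene and 6.15 inside the plus-strand gene. It also moved little with the gap between the TSSs, at 5.9997 for gaps of 1 to 100 bp and 6.62 for gaps over 1000 bp.

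In 29 of the 340 occupied stretches there was more than 1 region. PFN1/ENO3, profilin and muscle enolase, held 3 regions with folds of 5.81, 7.59 and 7.76 whose outer summits were 1972 bp apart. The other 28 held 2 each, and these neighbours could be unlike in strength. MRPL43/TWNK, a mitochondrial ribosomal protein and the mitochondrial DNA helicase, had folds of 31.3 and 5.00 with summits 629 bp apart, and EML3/ROM1 had 49.6 and 5.93 with summits 834 bp apart. At BAP1/PHF7, a deubiquitinase tumour suppressor and a PHD finger protein, the folds were alike at 7.15 and 7.44. These 4 stretches were chosen after their values had been seen.

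At the edge of the position rule the folds were as follows. Just inside, by 1 bp, lay DRAM2/CEPT1 with a fold of 16.5, C21orf58/PCNT with 5.23 and RAD1/BRIX1 with 5.77. Just outside, by 2 bp, lay EMC7/PGBD4 with 3.74, a second region at PCNA/CDS2 with 7.15 and TTI1/RPRD1B with 4.83.

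About 1 region in 4 was also found under LY500307. Of the 370 regions, 90, or 24.3% (95% Wilson interval 20.2 to 28.9%), overlapped an LY500307 region by at least 1 bp. Over the whole estradiol list the share was 33.8%, so the members stood below that background. The share was 29.1% (27.7 to 30.5%) at one-directional promoters and 34.8% (34.2 to 35.4%) outside promoters. The difference between bidirectional and one-directional promoter regions was -4.74 percentage points, with a 95% Newcombe interval of -9.07 to 0.080 that includes 0. Against regions outside promoters it was -10.5 points (-14.6 to -5.83).

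These differences moved with the strength of the regions. Pooled within quartiles of -log10 q by the Mantel-Haenszel method, the difference was 1.39 points (-2.38 to 5.16) against one-directional promoter regions and 7.45 points (3.80 to 11.1) against regions outside promoters. In the weakest quartile 8.67% of the bidirectional promoter regions overlapped an LY500307 region, in the second 26.7%, in the third 39.5% and in the strongest 96.8%, which was 30 of 31. At one-directional promoters the shares were 10.2%, 19.4%, 39.7% and 95%. Quartiles are wide and regions within one still differ in strength. Among the 90 regions found with both ligands, the estradiol and LY500307 folds had a Spearman correlation of 0.705 across regions, which share their local background and sequence.

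Overlap with the ethanol list was close to that of the whole estradiol list. It was seen at 32 of 370 regions, or 8.65% (6.19 to 11.95%), against 9.26% over the whole list. At one-directional promoters it was 11.3% (10.4 to 12.4%) and outside promoters 8.90% (8.53 to 9.28%). The difference against one-directional promoters was -2.69 points (-5.35 to 0.746) and included 0. Against regions outside promoters it was -0.250 points (-2.74 to 3.08), and within quartiles of GC content -4.02 points (-6.98 to -1.05), which excludes 0. Within quartiles of -log10 q it was 2.43 points (-0.416 to 5.27), of the opposite sign and including 0. Here and below, GC quartiles were cut on promoter regions only, so against regions outside promoters they hold GC content only partly equal. By quartile of -log10 q, the shares at bidirectional promoters were 3.57%, 14.3%, 7.89% and 22.6%, the last of these 7 of 31 regions.

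**Figure D3:**
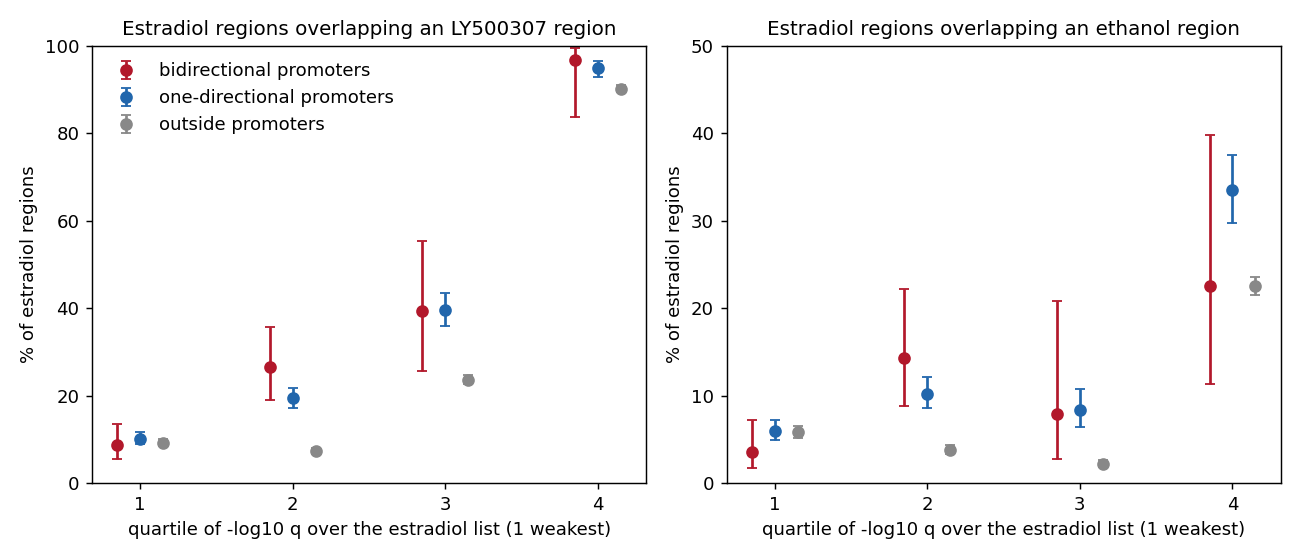
Share of estradiol regions (y axis, %) overlapping an LY500307 region (left) or an ethanol region (right) by quartile of -log10 q over the estradiol list (x axis), for bidirectional promoters (red), one-directional promoters (blue) and regions outside promoters (grey). Bars are 95% Wilson intervals; the LY500307 share at bidirectional promoters climbs to 96.8% in the strongest quartile, and its intervals overlap those of one-directional promoters in all 4 quartiles.

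The 3 lists divided the 370 regions into 18 found with every treatment, 72 found under estradiol and LY500307, 14 found under estradiol and ethanol, and 266, or 71.9%, found under estradiol alone. Over the whole estradiol list the shares were 8.01%, 25.8%, 1.25% and 64.9% in the same order. At one-directional promoters 67.6% were found under estradiol alone, a difference of 4.25 points (-0.744 to 8.83) that included 0. Within quartiles of -log10 q it was -1.51 points (-5.57 to 2.55). The share found with every treatment was 4.86% (3.10 to 7.56%), against 8.05% (7.25 to 8.93%) at one-directional promoters, a difference of -3.18 points (-5.15 to -0.372). Within quartiles of -log10 q that difference was -1.24 points (-3.48 to 0.996) and included 0. Within quartiles of GC content it was -3.14 points (-5.48 to -0.795), which excludes 0. The share found under ethanol and not under LY500307 was 3.78% (2.27 to 6.25%), against 3.29% at one-directional promoters and 0.846% outside promoters. Against regions outside promoters it was 2.94 points higher (1.42 to 5.41). Within quartiles of -log10 q it was 2.17 points higher (0.221 to 4.12), and within quartiles of GC content 1.08 points higher (-0.890 to 3.05), which includes 0.

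The median estradiol fold was highest in regions found with every treatment and lowest in those found under estradiol alone, whereas the median -log10 q was 16.2 in the first, 16.4 in those found with both ligands only, 9.28 in those found under estradiol and ethanol, and 7.14 in those found under estradiol alone. The 18 had median folds of 9.60 under estradiol, 7.08 under LY500307 and 6.21 under ethanol. The 72 had median folds of 8.98 under estradiol and 6.27 under LY500307, and the 14 had 7.05 under estradiol and 5.20 under ethanol. The 266 had a median estradiol fold of 6.03 and reached 22.7. Besides AFF1, ZBTB1, ACYP1 and SHBG, the strongest region found with every treatment was GBA2/RGP1, with folds of 34.7 under estradiol, 10.1 under LY500307 and 6.22 under ethanol. GBA2 is the non-lysosomal glucosylceramidase.

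The 5 strongest regions found under estradiol alone were TSC1/GFI1B with a fold of 22.7, OBSL1/INHA with 19.5, CNGA1/NIPAL1 with 18.2, PIERCE1/MRPS2 with 15.5 and HSP90AA1/WDR20 with 13.4. TSC1 is the hamartin subunit of a complex that restrains mTOR, INHA the alpha subunit of inhibin, and HSP90AA1 an inducible HSP90 chaperone, a protein class that holds unliganded steroid receptors. An absent region in a list means only that none was called there, and the lists differ in length, with 26861 estradiol, 10045 LY500307 and 2905 ethanol regions.

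**Figure D4:**
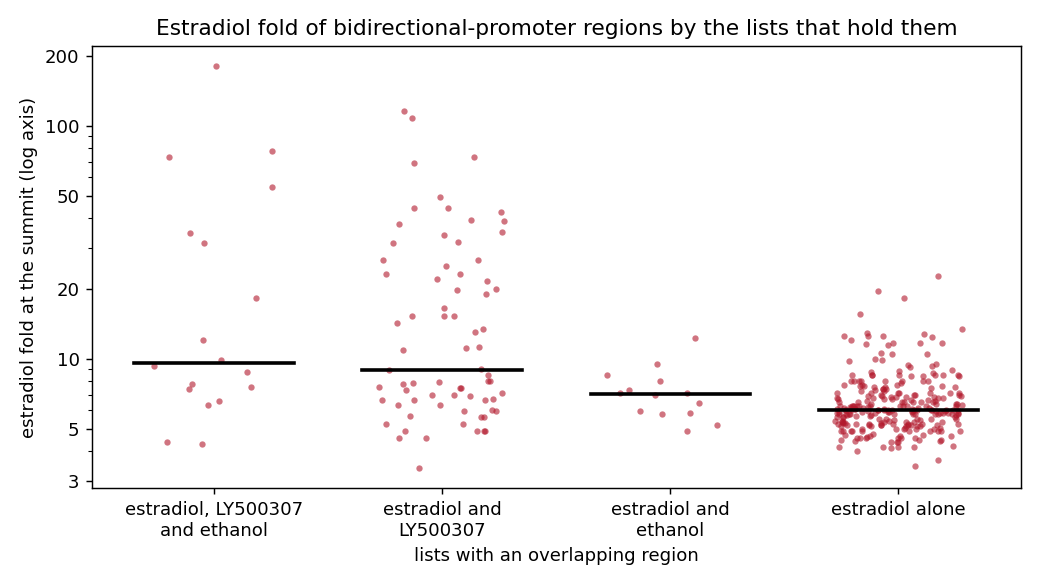
Estradiol fold (log axis) of each of the 370 regions, grouped by the lists in which an overlapping region was called; black lines are medians and points are spread sideways only for display. The medians are 9.60, 8.98, 7.05 and 6.03 from left to right, and no region found under estradiol alone lies above 22.7.

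Seen from the other lists, bidirectional promoters took 94 of 10045 LY500307 regions, or 0.936%, and 43 of 2905 ethanol regions, or 1.48%, by their own summits. Of the 94 LY500307 regions 85, or 90.4%, overlapped an estradiol region, against 91.9% of the whole LY500307 list. Of the 43 ethanol regions 33, or 76.7%, did so, against 87.0% of the whole ethanol list. The 3 strongest LY500307 regions outside the estradiol list were NUDCD1/ENY2 with a fold of 6.79, NAT9/TMEM104 with 5.86 and TNNC2/SNX21 with 5.23. The 3 strongest such ethanol regions were THAP5/DNAJB9 with 5.61, FAM76B/CEP57 with 4.58 and VPS9D1/ZNF276 with 5.57. None of these 6 overlapped a region of either other list, and their folds lay near the bulk of weak regions. The FAM76B/CEP57 promoter also held a separate region found with every treatment. Its folds were 6.33 under estradiol, 4.39 under LY500307 and 5.51 under ethanol, so this promoter was not particular to ethanol.

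Elements of the receptor were rarer at bidirectional promoters than outside promoters, and the half-site was also rarer there than at one-directional promoters. An ERE with at most 1 mismatch lay within 100 bp of the summit at 2.16% of the regions (1.10 to 4.21%), against 4.16% at one-directional promoters, 15.7% outside promoters and 13.8% over the whole list. The difference was -2.00 points against one-directional promoters (-3.25 to 0.127) and included 0, and -13.6 points against regions outside promoters (-14.7 to -11.5). With at most 2 mismatches the shares were 16.5% at bidirectional and 23.4% at one-directional promoters, a difference of -6.91 points (-10.6 to -2.59). Within quartiles of -log10 q this difference was -3.40 points (-7.20 to 0.405) and included 0. With at most 1 mismatch it was there -0.931 points (-2.46 to 0.599). The half-site AGGTCA, sought on both strands and able to overlap an ERE, lay at 12.4% of the regions, against 20.5% at one-directional promoters, 49.6% outside promoters and 44.7% over the whole list. Its difference against one-directional promoters was -8.02 points (-11.3 to -4.07), and within quartiles of -log10 q -5.54 points (-9.06 to -2.02). With 1 TSS per gene the half-site difference was -2.71 points (-8.38 to 4.92), which includes 0. The AP-1 element TGANTCA lay at 4.05%, against 5.94% at one-directional promoters, 19.8% outside promoters and 17.5% over the whole list, and its difference of -1.89 points against one-directional promoters (-3.65 to 0.730) included 0.

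Base composition moved with these comparisons. The median GC content within 100 bp of the summit was 68.7% at both kinds of promoter and 52.7% outside promoters, and the median ratio of observed to expected CpG was 0.824 at bidirectional promoters, 0.783 at one-directional promoters and 0.223 outside promoters. Within quartiles of GC content the difference in ERE share against regions outside promoters was -5.51 points (-7.06 to -3.96), and for the half-site it was -15.8 points (-19.3 to -12.3). The cut points came from promoter regions, whose first quartile was 61.2% at one-directional and 63.2% at bidirectional promoters. The third quartile outside promoters was 60.2%. Most regions outside promoters thus fell into the lowest class, which reached down to 20.9%, so GC content was held only partly equal.

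The few regions with an ERE had a higher median fold than the rest, given here as a description. The 8 had a median fold of 22.999, between 7.70 and 31.8, and the 362 without one had a median of 6.29. Of the 8, 6 overlapped an LY500307 region and 2 an ethanol region. LCA5L/SH3BGR had folds of 31.3 under estradiol, 15.0 under LY500307 and 7.81 under ethanol, and its ERE lay 23 bp from the nearest TSS. RAB24/PRELID1, where PRELID1 carries phosphatidic acid within mitochondria, had 31.8 under estradiol and 6.07 under LY500307. PSME2/RNF31, a proteasome activator subunit and the ubiquitin ligase HOIP, had 25.1 under estradiol and 5.22 under LY500307, with its ERE 4 bp from a TSS. At GLA, alpha-galactosidase A, and HNRNPH2 the folds were 22.999 under estradiol and 6.28 under LY500307, with the ERE 2 bp from a TSS. TIGD1/EIF4E2 had 22.999 under estradiol and 7.69 under LY500307. RBM18/MRRF had 8.81 under estradiol, 6.19 under LY500307 and 4.13 under ethanol. HSP90AA1/WDR20 and DNAJC7/NKIRAS2, under estradiol folds of 13.4 and 7.70, were found under estradiol alone. Among the 50 strongest regions 6 had an ERE, and among the 10 strongest none did.

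Elements of general promoter factors were more frequent for ETS, NRF1 and the cyclic AMP response element than at one-directional promoters, under the settings used here unless stated. The ETS element CCGGAAG lay at 11.4% of the regions (8.51 to 15.0%), against 6.71% at one-directional promoters, 1.79% outside promoters and 2.66% over the whole list. The difference against one-directional promoters was 4.64 points (1.68 to 8.35). It included 0 among regions with a -log10 q of at least 10, at 0.149 points (-3.54 to 6.14), and within 50 bp of the summit, at 0.739 points (-0.884 to 3.25). The NRF1 element, GCGCA and GCGC with 1 free base between, lay at 3.78%, against 1.63% at one-directional promoters and 0.443% over the whole list, a difference of 2.15 points (0.571 to 4.64) against one-directional promoters, and of 0.708 points (-0.121 to 2.49) within 50 bp of the summit. The cyclic AMP response element TGACGTCA lay at 2.43%, which was 9 of 370 regions, against 0.693% at one-directional promoters and 0.257% over the whole list. Its difference against one-directional promoters was 1.74 points (0.551 to 3.87). For this element the TSS choice and the motif window were not varied. The SP1 box GGGCGG lay at 57.0% (51.9 to 62.0%), against 52.1% at one-directional promoters and 20.8% over the whole list, and its difference of 4.89 points against one-directional promoters (-0.433 to 10.1) included 0.

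A different order appeared against bidirectional promoters that held no region of any list. In the 1313 such stretches, elements were sought within 100 bp of the midpoint, so these windows were not centred on a summit, and their median GC content was 61.7%. The shares are of the 370 regions on one side, which lie in 340 stretches, and of empty stretches on the other. An ERE with at most 1 mismatch lay at 2.16% of the regions and 0.533% of the empty stretches, a difference of 1.63 points (0.426 to 3.69). With at most 2 mismatches the shares were 16.5% and 6.85%, a difference of 9.63 points (5.89 to 13.9). The half-site lay at 12.4% of the regions and 8.15% of the empty stretches, a difference of 4.28 points (0.898 to 8.28). The SP1 box lay at 57.0% of the regions and 48.0% of the empty stretches, a difference of 9.05 points (3.28 to 14.7). The AP-1 element TGANTCA lay at 4.05% of the regions and 1.75% of the empty stretches, a difference of 2.30 points (0.5001 to 4.89). In the narrower form TGACTCA it lay at 2.70% of the regions (Wilson interval 1.47 to 4.90%). The share of the empty stretches with TGACTCA was 1.29% (0.81 to 2.06%), and these intervals overlapped. The difference for TGACTCA was not computed, so the AP-1 excess is stated only for TGANTCA. For the ETS element, at 11.4% of the regions and 13.4% of the empty stretches, the difference was -2.05 points (-5.50 to 1.98) and included 0. NRF1 elements were rarer at the regions, at 3.78% against 7.77%, a difference of -3.98 points (-6.17 to -1.18). So were NF-Y elements AGCCAAT, at 1.62% against 6.17%, a difference of -4.55 points (-6.23 to -2.34). The ZNF143 element ACTACAA lay at 1.35% against 4.19%, a difference of -2.84 points (-4.28 to -0.823). Over the whole list NF-Y elements lay at 1.54% and ZNF143 elements at 1.14% of regions. For the YY1 element AAGATGGC, at 1.89% of the regions and 1.52% of the list, and the E-box CACGTG, at 6.76% and 3.45%, the difference from the empty stretches included 0. The cyclic AMP response element lay at 2.43% of the regions and 1.60% of the empty stretches. Its difference of 0.833 points (-0.585 to 3.03) also included 0. The part that GC content and the choice of the midpoint have in these differences was not tested.

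**Figure D5:**
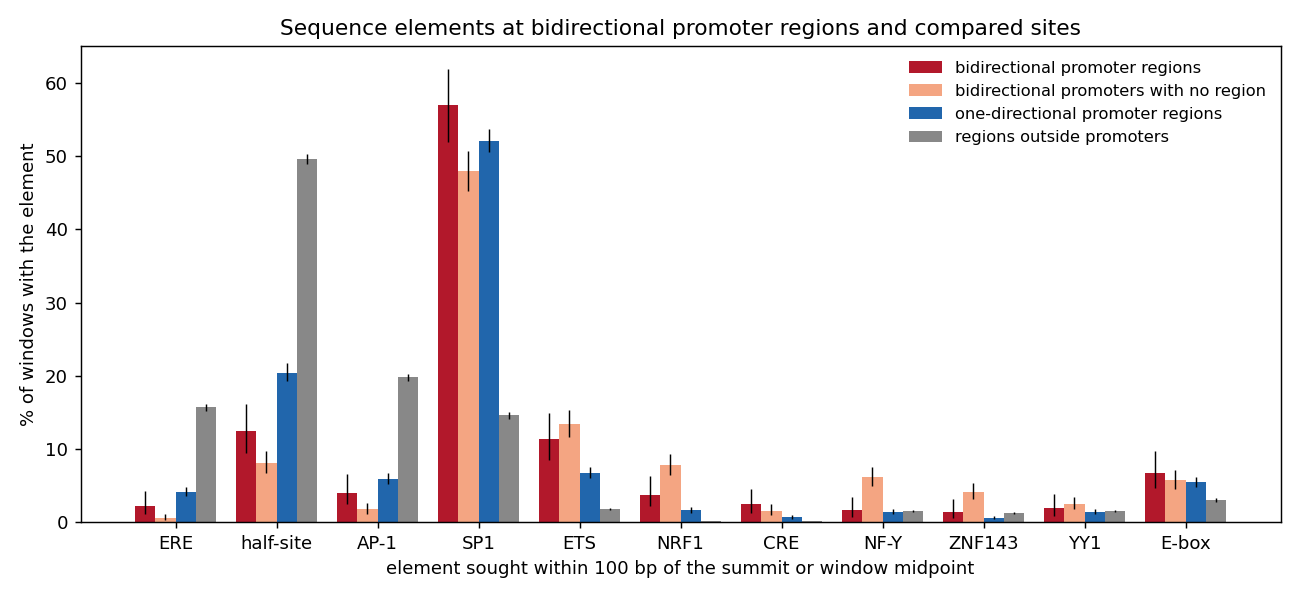
Share of windows (y axis, %) holding each element (x axis, no mismatch except 1 for the ERE) within 100 bp of the summit, or of the midpoint for promoters with no region. Red bars are estradiol regions at bidirectional promoters, light bars bidirectional promoters without a region, blue bars one-directional promoter regions and grey bars regions outside promoters, with 95% Wilson intervals. The red ERE bar, 2.16%, lies far under the grey one, 15.7%, and the red NF-Y bar, 1.62%, under the light one, 6.17%.

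Among the bidirectional promoter regions the elements went with different strengths. The 14 regions with an NRF1 element had a median fold of 12.4, from 4.20 to 73.3, and 7 of them overlapped an LY500307 region. The 42 with an ETS element had a median fold of 6.08 and 4 of them overlapped an LY500307 region. Over all 370 regions 24.3% did so, without an NRF1 element 23.3% and without an ETS element 26.2%. In the strongest quartile of -log10 q lay 6 of the regions with an NRF1 element and 1 with an ETS element. Strength was not held equal in these counts, so they do not show a trait of the elements. With an SP1 box the median fold was 6.30 and without one 6.37. The 15 with an AP-1 element had a median fold of 8.51, and those without one 6.29. These medians are descriptions over few regions.

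The share of genes with a region lay near that of all genes with a bidirectional stretch in 3 of the 7 gene groups. It was above it in 3, with intervals that include it, and below it in 1. Of all 3083 genes with a bidirectional stretch, 688, or 22.3%, had an estradiol region there. For DNA repair genes it was 8 of 37, or 21.6%, for the mitochondrial ribosome and respiratory chain 13 of 60, or 21.7%, and for chaperones and the proteasome 5 of 24, or 20.8%. For DNA replication and cell cycle genes it was 7 of 21, or 33.3% (95% Wilson interval 17.2 to 54.6%). For aminoacyl-tRNA synthetases and nucleotide synthesis it was 5 of 16, or 31.25% (14.2 to 55.6%), and for genes of well-known head-to-head pairs 12 of 36, or 33.3% (20.2 to 49.7%). Of 31 replication-dependent histone genes with such a stretch none had a region, with an upper limit of the 95% Wilson interval of 11.03%. Paired genes share a promoter and so are not counted independently, and nothing particular to a group is read from these shares.

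The 10 regions at DNA repair genes had estradiol folds of 3.66 to 8.51. PALB2, a BRCA2 partner, had a fold of 8.51 under estradiol and 4.94 under LY500307, ATM, the kinase that senses double-strand breaks, had 6.11 under estradiol, and RECQL4, a helicase, had 6.06 under estradiol. The replication and cell cycle group held GINS1, of the replicative helicase, with 15.2 under estradiol and 7.24 under LY500307. It further held NPAT, which drives histone gene transcription and shares the ATM region of fold 6.11, ORC6, of the origin recognition complex, with 6.50, and PCNA, the sliding clamp, with 6.25. PALB2 and GINS1 were found with both ligands and not under ethanol, and the regions of ATM, NPAT, RECQL4, ORC6 and PCNA under estradiol alone.

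The mitochondrial group held the strongest region of the 7 gene groups. NDUFB9, a subunit of respiratory complex I, had a fold of 38.0 under estradiol and 8.79 under LY500307. MRPL43 had 31.3 under estradiol and 9.12 under LY500307, and MRPL2 had 19.7 under estradiol and 4.77 under LY500307. MRPS2, whose region of fold 15.5 was found under estradiol alone, belongs like both to the mitochondrial ribosome. Of the 13 genes of this group 3 had a region that was also found under LY500307 and 1, NDUFS3, a region also found under ethanol, with folds of 5.81 under estradiol and 6.03 under ethanol.

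Among chaperones, HSP90AA1 had the highest fold, 13.4, followed by the HSPD1/HSPE1 promoter, which serves both partners of the mitochondrial chaperonin, with 8.04. Both were found under estradiol alone. The proteasome subunit gene PSMA7 had folds of 6.61 under estradiol, 6.95 under LY500307 and 5.15 under ethanol. The group of aminoacyl-tRNA synthetases was led by AARS1, the alanyl enzyme, with 9.50 under estradiol and 5.24 under ethanol and no LY500307 region. FARS2 with 5.95 and the HARS1/HARS2 pair with 4.39 were found under estradiol alone. Of the well-known head-to-head pairs, HSPD1/HSPE1, NPAT/ATM and HARS1/HARS2 were among the 4 with the highest -log10 q.

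Bidirectional promoters are only those of a pair of protein-coding genes here, and many other promoters also fire in both directions. Of the 4039 one-directional promoter regions, 632, or 15.6%, had the TSS of a noncoding gene on the opposite strand in the same window. Their median fold was 6.70, 30.9% overlapped an LY500307 region and 1.90% had an ERE, against 6.9997, 28.7% and 4.58% at the 3407 without such a TSS. Their ETS share was 8.70%, against 6.34% without it.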

How the data were processed

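The deposited files are 3 lists of enriched regions, 1 per treatment, read as pooled over the ChIP libraries; whether all 4 entered is not stated. The tools, per the submitters' processing notes, were MACS2 2.1.1.20160309, Bowtie2 2.2.6 and DiffBind, on hg38. The deposited score is the authors' display value and was not used. The fold is the authors' ratio of ChIP signal to local background, and the deposited -log10 q is that of the authors' peak caller. Read depth is not known from the lists.

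Only the 22 autosomes, X and Y were used (26861 of 26896 estradiol, 10045 of 10059 LY500307 and 2905 of 2911 ethanol). TSSs came from 19689 protein-coding genes of GENCODE 44. Computations used Python 3.11.15, numpy 2.4.6, pandas 2.3.3, scipy 1.17.1, pysam 0.24.0 and matplotlib 3.10.9, and were checked on constructed data. Overlap meant at least 1 bp. Elements were sought on both strands of hg38 within 100 bp of the summit. Shares have 95% Wilson intervals, differences of shares 95% Newcombe intervals, or Mantel-Haenszel intervals within 4 quartiles of -log10 q or GC content, and densities exact Poisson intervals. Quartiles of -log10 q were cut on the whole estradiol list and those of GC content on the promoter regions. No adjustment was made for the number of shares compared.

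Named regions were the 10 with the highest -log10 q; the 5 highest found with every treatment, with LY500307 but not ethanol, and with estradiol alone; the 3 highest LY500307 and ethanol regions outside the estradiol list; the 4 highest per gene group; and the 3 nearest the rule's edge on each side. Some items that this rule names are not reported here. The bidirectional class and the gene lists were chosen with earlier results of these data known.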

Additional observations from a re-analysis of the deposited data

How the results depend on the processing

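No paired analysis was possible because each treatment has 1 pooled list without replicate columns, and for the same reason no replicate could be left out. The number of regions at bidirectional promoters was 130 at a -log10 q of at least 10 and 124 with 1 TSS per gene, and 254 to 495 under the other 4 settings. Depth is unknown, so an absent region cannot be told from one missed at low depth.

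For LY500307 overlap, the difference from one-directional promoters came to exclude 0 at a -log10 q of at least 5 (-5.98 points), with all transcripts (-4.92), 500 bp upstream (-7.27), 50% of each region covered (-5.66), summits within 200 bp (-5.51), LY500307 regions at a -log10 q of at least 5 (-6.76), and without pairs with a gene known only by an Ensembl ID (-5.02). Within quartiles of -log10 q it was 1.39 with an interval around 0. The ethanol difference excluded 0 with 50% covered (-2.52).

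The ERE difference excluded 0 with all transcripts (-2.57), 200 bp on each side of the summit (-2.42), quartiles of GC content (-1.60), at most 2 mismatches (-6.91) and one-directional promoters without an opposite noncoding TSS (-2.42). Within quartiles of -log10 q it included 0, at -0.931 with at most 1 mismatch and -3.40 with at most 2. The AP-1 difference did so with all transcripts (-3.53) and with 200 bp (-3.09), and was -2.05 as TGACTCA on either strand. The half-site difference included 0 with 1 TSS per gene (-2.71), ETS at a -log10 q of at least 10 (0.149) and within 50 bp of the summit (0.739), and NRF1 within 50 bp (0.708). The median fold was 6.74 at a -log10 q of at least 5. The share of occupied stretches was 17.8% at that limit and 12.01% with 1 TSS per gene. Against regions outside promoters, the LY500307 difference changed sign: it was 7.45 points within quartiles of -log10 q and -10.5 points without them. The half-site, ETS and NRF1 differences against one-directional promoters kept their sign in every setting run. The cause of these shifts was not tested. The settings without Ensembl ID pairs, without opposite noncoding TSSs and with TGACTCA were chosen after seeing the data.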
